A study of Mus musculus with 15 samples.

Results

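The cytosolic ribosomal protein genes are taken here as the genes whose symbol is Rpl or Rps followed by a digit, together with Rplp0, Rplp1, Rplp2 and Rpsa. The ribosomal S6 kinases and names ending in -ps were left out, and each gene was read from its brightest probe set among those annotated to a single gene. The rule found 50 genes among 18193 genes with such a probe set. Of these, 47 passed the limit of 100 on the signal averaged over the 15 arrays and were tested, among 11603 tested genes. Rpl39l, Rpl3l and Rps16 were at 72.3, 18.7 and 2.31 and were not tested. A further 31 genes of the family, among them Rpl10, Rpl5 and Rplp1, are named only on probe sets that carry several gene names, and no value is given for them. Rps19bp1 carries the letters of the rule but encodes a protein that binds the ribosomal protein S19; it was kept and is pointed out where it is counted.

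The arrays came from SP-C/c-raf mice, in which the promoter of the surfactant protein C gene drives the c-raf kinase in the lung epithelium, on a C57BL/6 background of at least 5 generations. Dysplastic foci (5 arrays) and transgenic but unaltered lung (5 arrays) were cut by laser microdissection from the same transgenic animals, aged 5 to 7 months, and non-transgenic lung (5 arrays) came from littermates aged 7 to 10 months. The non-transgenic mice lack the transgene, and their age differs from that of the other groups, so that age and transgene cannot be told apart between them. Each sample was hybridised to an Affymetrix mouse genome array of its own. The question put to the arrays was which transcripts differ between dysplasia and unaltered lung, and which differ through the transgene alone.

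Cytosolic ribosomes consist of a small subunit, which reads the mRNA, and a large subunit, which joins the amino acids. Proteins named Rps belong to the small subunit and those named Rpl to the large one, and nearly every cell makes them in large and balanced amounts. Their mRNAs are known for a terminal oligopyrimidine tract, a run of C and T bases that begins at the transcription start and through which the mTOR pathway controls their translation. Some members have paralogues, copies with diverged expression that can take the place of the parent protein. Such paralogues, for example Rpl22l1 and Rps27l, are often regulated apart from the core set.

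The start sites of the members that the comparisons turn on are shown first, since the tract at the start is the sequence feature by which the family is usually recognised. RefSeq promoters on GRCm38.p6 held 44 of the 50 members. A run of at least 5 C or T bases covering the annotated start was found in 13 of the 44 (29.5%), in 11.8% of all 27025 genes in the table, and in 4 of 67 mitochondrial ribosomal protein genes (5.97%). Runs were searched on the gene's own strand, and capitals mark the run of C and T that covers the start, which is the base after the first 30. The first 4 genes have the run and were higher in dysplasia than in transgenic unaltered lung. The other 4 lack it: both paralogues named above, Rpl22, the parent of Rpl22l1, and Rps4x, the parent of Rps4l. Run and rise did not go together throughout. Rps27l and Rpl22l1 were higher in the same comparison without a run covering the start. In Rpl22l1 the annotated start is a G, directly followed by the C and T bases ttctcttccc. Of the 13 members with a run, only the first 4 shown were called higher than in transgenic unaltered lung. Rpl27a, Rplp2 and Rpl38, not shown, have runs of 20, 10 and 10 bases and were among those not called higher. Rps4l was not in the table.
Rps9, chr7:3704011-3704060, plus strand: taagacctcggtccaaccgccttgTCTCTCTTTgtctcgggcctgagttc
Rps6, chr4:86857348-86857397, minus strand: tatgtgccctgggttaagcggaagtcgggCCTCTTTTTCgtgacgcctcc
Rpl14, chr9:120571487-120571536, plus strand: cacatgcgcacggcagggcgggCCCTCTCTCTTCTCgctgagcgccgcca
Rps27, chr3:90213629-90213678, minus strand: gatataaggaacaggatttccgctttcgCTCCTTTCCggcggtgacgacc
Rps27l, chr9:66946056-66946105, plus strand: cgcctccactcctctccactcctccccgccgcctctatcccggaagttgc
Rpl22l1, chr3:28805478-28805527, plus strand: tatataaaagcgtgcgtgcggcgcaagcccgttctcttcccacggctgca
Rpl22, chr4:152325696-152325745, plus strand: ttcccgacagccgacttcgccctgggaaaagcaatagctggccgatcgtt
Rps4x, chrX:102189372-102189421, minus strand: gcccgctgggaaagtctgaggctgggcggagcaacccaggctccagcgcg
The runs of the first 4 were 9, 10, 14 and 9 bases long. A second annotated start each of Rps27l and Rpl22 had no run either. An annotated start can lie a few bases from the one that the lung uses, so a missing run says only that these letters are not at this position.

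Several properties of the arrays run through all values below. The label of transgenic array 2 calls it transgenic unaltered in its title and tumor in another entry. The arrays numbered 4 of dysplasia and of transgenic unaltered lung, which should share an animal if numbers mark animals, differed in Xist, the transcript of the inactive X chromosome, at 9674 and 85.0. Xist was between 9674 and 15052 on 2 dysplasia, 1 transgenic and 4 non-transgenic arrays and at most 166 on the 8 others, an uneven spread over the groups. The ratio of the 5' to the 3' signal of actin, a sign of RNA integrity, ran from 12.5% to 75.2% and was below 40% on 8 arrays. Markers of alveolar type 2 cells, the epithelium in which surfactant protein C is made, were bright in every group, with summed signals from 113360 to 191985 in dysplasia, from 105785 to 177412 in transgenic unaltered and from 97165 to 129379 in non-transgenic lung. Of 7 tested, 2 were higher in dysplasia than in non-transgenic lung, and 0 were called against transgenic unaltered lung. All 8 endothelial markers were lower in dysplasia, with sums from 7754 to 12638 against 31624 to 40844 in transgenic unaltered and 33103 to 45778 in non-transgenic lung. Of 5 tested cell cycle markers, 4 were higher than in transgenic unaltered and 5 than in non-transgenic lung, and their sums ran from 8392 to 9590 in dysplasia, from 5768 to 6581 and from 5273 to 5550. Against transgenic unaltered lung, 3 of 4 tested club cell markers and 2 of 2 ciliated cell markers were higher in dysplasia, and 4 of 5 macrophage, 4 of 4 B cell, 3 of 7 fibroblast, 2 of 3 smooth muscle and 2 of 2 red blood cell markers were lower. Against non-transgenic lung 0 of the 4 club cell markers were called in dysplasia. In transgenic unaltered lung 1 of the 4 was lower than in non-transgenic lung. Summed ciliated cell markers ran from 1168 to 1358 in dysplasia, from 115 to 265 in transgenic unaltered and from 126 to 343 in non-transgenic lung. Macrophage sums ran from 8783 to 11533, from 16083 to 16886 and from 11407 to 15034, and 2 of 5 were higher in transgenic unaltered than in non-transgenic lung. The part of these shifts in any value below was not tested, and in pieces of tissue fewer cells of a kind cannot be told apart from less RNA in each cell.

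Ribosomal protein probe sets were among the brightest on the arrays. The 36 members with a mean signal over 8000, a line drawn after the values were seen, ranged from 8217 for Rpl22l1 to 26899 for Rpl38, and all lay within the brightest 1.45% of probe sets. On 7 of the 15 arrays the highest signal of all was that of a member. The brightest member was Rpl38 on 7 arrays and Rps29 on 8, both named after their values were seen. The other 11 tested members lay between 202 (Rpl39) and 2482 (Rps6). A signal depends on the probes as well as on the transcript, so the order of these values is not an order of transcript levels.

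In dysplasia 7 of the 47 members were higher than in transgenic unaltered lung and 1 was lower, at an adjusted p under 0.05 in limma. Among all 11603 tested genes 18.6% were higher and 21.0% lower, so the share of members called higher (14.9%) was near that of all genes, and 1 member was called lower. The rises were Rps27, Rpl14, Rps27l, Rps6, Rpl22l1, Rps19bp1 and Rps9, from 0.83 down to 0.41 on the log2 scale, and the fall was Rps4l. The remaining 39 members, which include most of the tested core genes of both subunits, did not pass the test. The log2 change was above 0 in 42 members and below 0 in 5, with a median of 0.15, where the median of all tested genes was -0.01. Groups did not overlap in 8 members, against 31.3% of all genes. Of the large subunit 2 of 24 tested members were called higher, and of the small subunit 5 of 23 higher and 1 lower. Without the paralogues and Rps19bp1, 4 of 42 were higher and 0 lower.

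**Figure D1:**
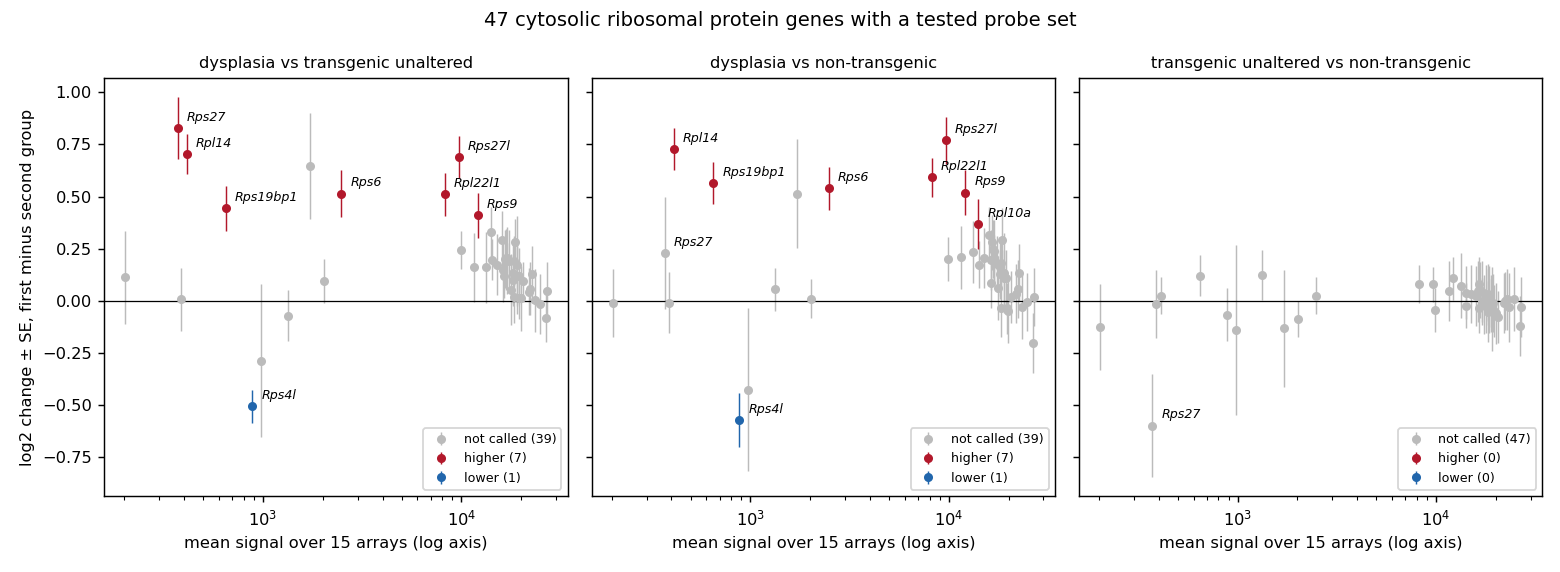
Log2 change (± SE) of the 47 tested members against the mean signal of the probe set over 15 arrays (log axis), in the 3 comparisons; red and blue points passed an adjusted p under 0.05. The numbers called are 7 higher and 1 lower, 7 higher and 1 lower, and 0; most grey points of the bright members lie above 0 in the first 2 panels and around 0 in the third.

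Each transgenic animal gave a dysplastic and an unaltered sample, and arrays of the same number in these groups correlated in their deviations from the group means. Number 4 was the weakest, with r = 0.219 over all tested probe sets and -0.03 over the members, beside 0.48 to 0.86 over the members at the other numbers. Transgenic unaltered and non-transgenic arrays of the same number, from different mice, correlated too, with r from 0.135 to 0.793 over all tested probe sets. Arrays of different numbers had a mean r of -0.108 there and of -0.150 between dysplasia and transgenic unaltered lung. Of the 10 arrays, 4 correlated best with their own number there, and 10 did between dysplasia and transgenic unaltered lung. What arrays of a number share was not tested. With the array number as a block, 13 members were higher and 2 lower, where 25.9% and 28.0% of all tested genes were. The block added Rpl37, Rpl10a, Rps19, Rplp0, Rpl11 and Rps18 as higher and Rpl27a as lower. In each of the 6 genes added as higher, dysplasia exceeded transgenic unaltered lung at all 5 numbers, and Rpl27a was lower at all 5. The block favours genes whose differences within a number are alike, so these signs are no separate support. Without transgenic array 1, 11 members were higher in the fit without the block, where 17.9% of all tested genes were. Without transgenic array 2, whose labels differ, and without dysplasia array 4, the counts stayed at 7 and 1.

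Against non-transgenic lung 7 members were also higher in dysplasia and 1 lower, beside 24.7% and 26.0% of all tested genes. Both comparisons use the same dysplasia arrays, so they are not independent. Rpl14, Rps27l, Rpl22l1, Rps19bp1, Rps6 and Rps9 were higher and Rps4l lower here too. Rpl10a was higher in this comparison, and Rps27 was not called. Groups did not overlap in 8 members, against 39.9% of all genes. The change was above 0 in 37 members and below 0 in 10, with a median of 0.16 beside -0.01 for all tested genes. Of the large subunit 3 of 24 were higher, and of the small subunit 4 of 23 were higher and 1 lower.

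Transgenic unaltered and non-transgenic lung were compared to see what the transgene does without a lesion. None of the 47 members was called in limma, where 1.59% of all genes were higher and 0.121% lower. At an unadjusted p under 0.05 stood 1 member, Rps27, against 14.7% of all genes. No member had groups without overlap, against 5.76% of all genes. The change was above 0 in 22 members and below 0 in 25, between -0.60 (Rps27) and 0.13 (Rps25, named after its value was seen), with a median of 0.00 (-0.00188 unrounded) beside -0.01 for all genes. With log2 of the Xist signal as a covariate this median was -0.10 beside 0.01 for all genes, and that of dysplasia against non-transgenic lung 0.10 beside 0.01, where 6 members were higher and 1 lower against 22.4% and 22.3% of all tested genes.

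Rps27l is a paralogue of Rps27 and a known target of p53. Its signals in dysplasia arrays 1 to 5 were 16262, 11385, 13539, 12266 and 12546. In transgenic unaltered lung they were 8081, 8051, 7956, 8264 and 8193, and in non-transgenic lung 7939, 6567, 7545, 8532 and 7898. Every dysplasia array lay above all 10 others, and the 5 transgenic arrays were within a narrow band. The mean was 13200 ± 1877 (SD, n = 5) in dysplasia, 1.63 times that of transgenic unaltered lung and 1.72 times that of non-transgenic lung. The log2 change was 0.69 ± 0.10 (SE; limma adjusted p = 0.000337) against transgenic and 0.77 ± 0.11 (adjusted p = 0.000214) against non-transgenic lung. The other 2 tested probe sets of Rps27l rose by 0.58 and 0.54 against transgenic and by 0.59 and 0.50 against non-transgenic lung, all with an adjusted p under 0.05.

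Rpl22l1 is the paralogue of Rpl22, an RNA-binding protein of the large subunit. Its signals were 12180, 9296, 10085, 10003 and 10660 in dysplasia, then 8032, 6759, 6495, 7444 and 7828 in transgenic unaltered lung, and 7609, 7079, 6277, 6649 and 6867 in non-transgenic lung. The lowest dysplasia array was above the highest of the other groups. The log2 change was 0.51 ± 0.10 (adjusted p = 0.00245) against transgenic and 0.59 ± 0.09 (adjusted p = 0.000393) against non-transgenic lung. Rpl22 itself stood at 20052 in dysplasia, 18446 in transgenic unaltered and 18547 in non-transgenic lung, with changes of 0.12 ± 0.14 and 0.11 ± 0.13 (adjusted p = 0.576 and 0.554).

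Rps4l was the member that fell. It is a paralogue of Rps4x, the X-linked gene of a small subunit protein. Dysplasia arrays gave 598, 661, 681, 697 and 674. Transgenic unaltered lung gave 979, 886, 958, 961 and 1018, and non-transgenic lung 1210, 1119, 1087, 981 and 712. All 5 dysplasia arrays lay below every other array, and non-transgenic array 5 came nearest to them. The log2 change was -0.50 ± 0.08 (adjusted p = 0.000536) against transgenic and -0.57 ± 0.13 (adjusted p = 0.00422) against non-transgenic lung. Rps4x changed by 0.05 ± 0.17 and 0.06 ± 0.15 in the same comparisons (adjusted p = 0.853 and 0.782).

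**Figure D2:**
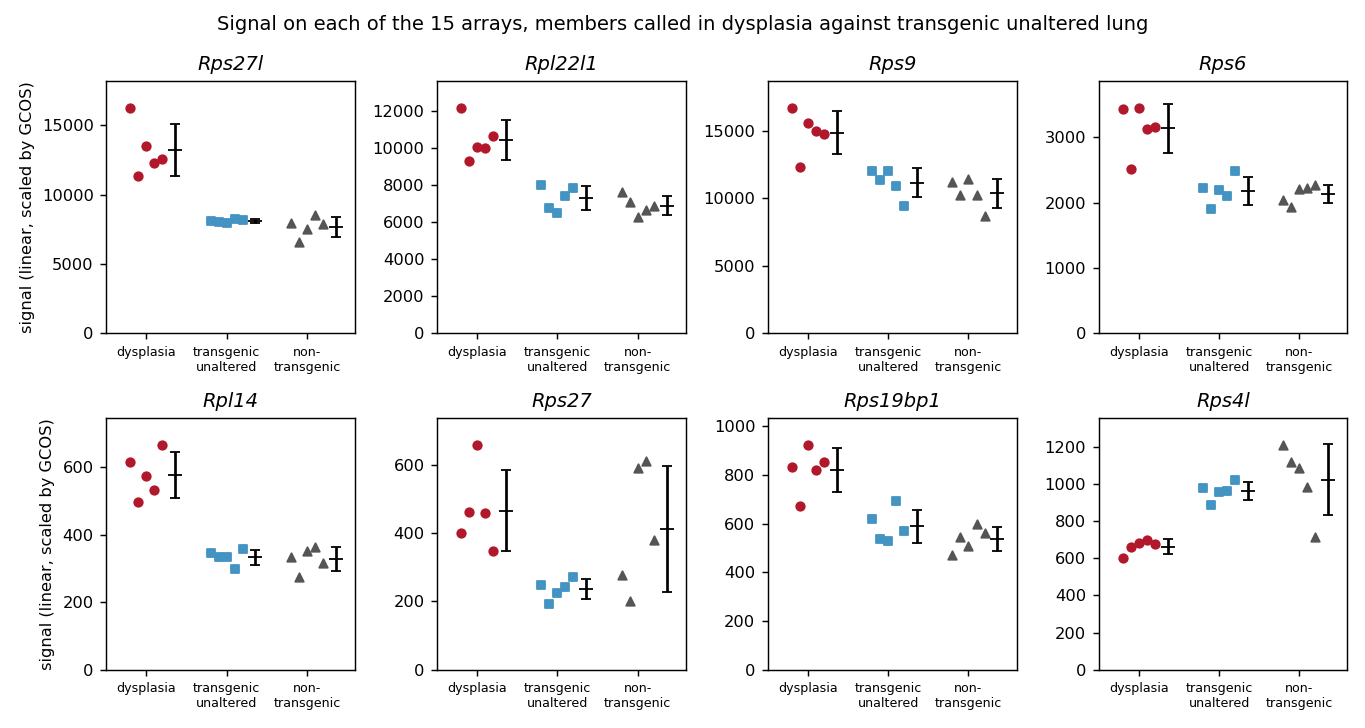
Signal (linear scale, axis from 0) on each of the 15 arrays for the 8 members called between dysplasia and transgenic unaltered lung; points are arrays in order of their number, and black bars give the mean ± SD of 5 arrays. Dysplasia lies apart from transgenic unaltered lung in every panel except that of Rps19bp1, where dysplasia array 2 (673) is below transgenic array 4 (694), and Rps4l is lower in dysplasia.

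Among the small subunit members, Rps6 is the substrate of the S6 kinases. It gave 3441, 2515, 3449, 3128 and 3156 in dysplasia, 2218, 1899, 2188, 2096 and 2480 in transgenic unaltered lung, and 2040, 1932, 2200, 2226 and 2267 in non-transgenic lung. Dysplasia array 2 lay just above the highest transgenic array, and the groups did not overlap. Rps6 rose by 0.51 ± 0.11 (adjusted p = 0.00396) and 0.54 ± 0.10 (adjusted p = 0.00132).

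Rps9, a protein that binds the small ribosomal RNA early in assembly, was at 16673, 12284, 15555, 14939 and 14785 in dysplasia. Transgenic unaltered lung gave 12036, 11357, 12021, 10921 and 9389, and non-transgenic lung 11223, 10260, 11398, 10210 and 8644. Dysplasia was higher throughout, by 0.41 ± 0.11 (adjusted p = 0.0124) and 0.52 ± 0.11 (adjusted p = 0.00253). This rise was not seen on its other probe sets. One with a mean signal of 7279 changed by 0.09 (adjusted p = 0.638) and -0.05 (adjusted p = 0.781), and another at 259 by 0.11 and 0.26 (adjusted p = 0.66 and 0.181).

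Rpl14, a large subunit protein, was read from a dim probe set. It gave 615, 496, 573, 533 and 667 in dysplasia against 346, 333, 334, 298 and 357 in transgenic unaltered lung and 333, 275, 352, 363 and 317 in non-transgenic lung. The groups were well apart, and the change was 0.70 ± 0.10 (adjusted p = 0.000201) and 0.73 ± 0.10 (adjusted p = 0.000159). Rps27 was dim as well. It gave 402, 463, 659, 459 and 348 in dysplasia, 250, 193, 226, 243 and 271 in transgenic unaltered lung, and 277, 202, 592, 611 and 380 in non-transgenic lung. Dysplasia was above transgenic unaltered lung on all arrays (0.83 ± 0.15, adjusted p = 0.00126), while non-transgenic lung spread over both ranges (0.23 ± 0.27, adjusted p = 0.531).

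Rps19bp1 rose by 0.44 ± 0.11 (adjusted p = 0.00782) against transgenic and by 0.56 ± 0.10 (adjusted p = 0.000842) against non-transgenic lung, from group means of 590 and 537 to 821. Rpl10a, a large subunit protein, gave 19783, 15400, 16447, 14420 and 16129 in dysplasia, 16520, 11738, 11892, 13164 and 12184 in transgenic unaltered lung, and 14039, 10571, 14235, 13784 and 11098 in non-transgenic lung. Its lowest dysplasia array stood just above the highest non-transgenic array but under transgenic array 1. The change was 0.37 ± 0.12 against non-transgenic (adjusted p = 0.0289) and 0.33 ± 0.12 against transgenic unaltered lung (adjusted p = 0.0592). Leaving out dysplasia array 1 or 3, or non-transgenic array 2 or 5, ended the first call, with adjusted p between 0.0543 and 0.0663, and so did the Xist covariate (adjusted p = 0.102). Against transgenic unaltered lung Rpl10a was called under several other settings. Among them were quantile normalization (limma adjusted p = 0.0203), the Xist covariate (0.0474) and leaving out transgenic array 1 (0.0124). Leaving out any other single array did not make this call, with adjusted p up to 0.129.

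The other core members that were followed by name did not pass the test in the unpaired fit on all arrays of each comparison. After quantile normalization Rps19 passed in both comparisons with dysplasia (adjusted p = 0.0491 against transgenic and 0.0156 against non-transgenic lung) and Rpsa in the one with non-transgenic lung (adjusted p = 0.0365). Against transgenic unaltered lung without its array 1, Rpl11, Rplp0 and Rps19 passed (adjusted p = 0.0324, 0.0438 and 0.0372), and Rpl11 also with a prior variance that follows the signal (adjusted p = 0.04). Rplp0, the base of the stalk that recruits elongation factors, had means of 20960 in dysplasia, 17250 in transgenic unaltered and 17429 in non-transgenic lung (0.28 ± 0.11 and 0.29 ± 0.16; adjusted p = 0.0743 and 0.156). Rplp2, also of the stalk, stood at 24592, 24972 and 24787, with changes of -0.01 ± 0.14 and -0.01 ± 0.14. Rps19, known from Diamond-Blackfan anaemia, stood at 18212, 14948 and 14663 (0.29 ± 0.14 and 0.31 ± 0.13; adjusted p = 0.142 and 0.0806). Rpl11, which can bind the p53 regulator Mdm2, gave 0.24 ± 0.09 and 0.20 ± 0.10 (adjusted p = 0.0618 and 0.146). Rpsa, also known as the laminin receptor, gave 0.20 ± 0.14 and 0.28 ± 0.13, and Rpl4 0.19 ± 0.12 and 0.18 ± 0.12. The largest change among these 6 genes in the comparisons with dysplasia was 0.31, that of Rps19.

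The brightness of the whole bright set followed the array. The median deviation of the 36 bright members from their own 15-array means was 0.42, -0.11, 0.12, -0.05 and 0.11 (log2) in dysplasia arrays 1 to 5. It was 0.28, -0.23, -0.18, 0.06 and -0.16 in transgenic unaltered lung, and 0.13, -0.30, 0.16, 0.04 and -0.26 in non-transgenic lung. Arrays numbered 1 were high and those numbered 2 low in all 3 groups, and the groups overlapped. The mean signal of the whole array moved with it, from 692 on non-transgenic array 2 to 775 on dysplasia array 1, and the 36 probe sets held from 1.65% to 2.41% of the summed signal of an array. Between dysplasia and transgenic unaltered arrays of the same number, the median difference over the 36 was 0.12, 0.13, 0.30, -0.13 and 0.24, and 9 of 36 members were above 0 at number 4. Against non-transgenic lung it was 0.26, 0.19, -0.04, -0.07 and 0.38.

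The median change depended on single arrays. Without dysplasia array 1 the median of the 47 members was 0.07 against transgenic and 0.09 against non-transgenic lung. Without transgenic array 2 or 3 it was 0.09 or 0.10, without non-transgenic array 2 0.09, and without transgenic array 1 0.22. After quantile normalization, which gives all arrays 1 distribution, the medians were 0.09 and 0.10, beside 0.01 and 0.02 for all tested genes. On that scale the array medians of the 36 bright members ran from 0.03 to 0.08 in dysplasia, from -0.06 to -0.01 in transgenic unaltered and from -0.08 to 0.00 (0.00323 unrounded) in non-transgenic lung, with no overlap between dysplasia and the other groups. The members called were 9 higher and 1 lower in each comparison with dysplasia, including the 7 called without it, where 19.3% and 25.5% of all tested genes were higher and 20.0% and 23.9% lower.

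**Figure D3:**
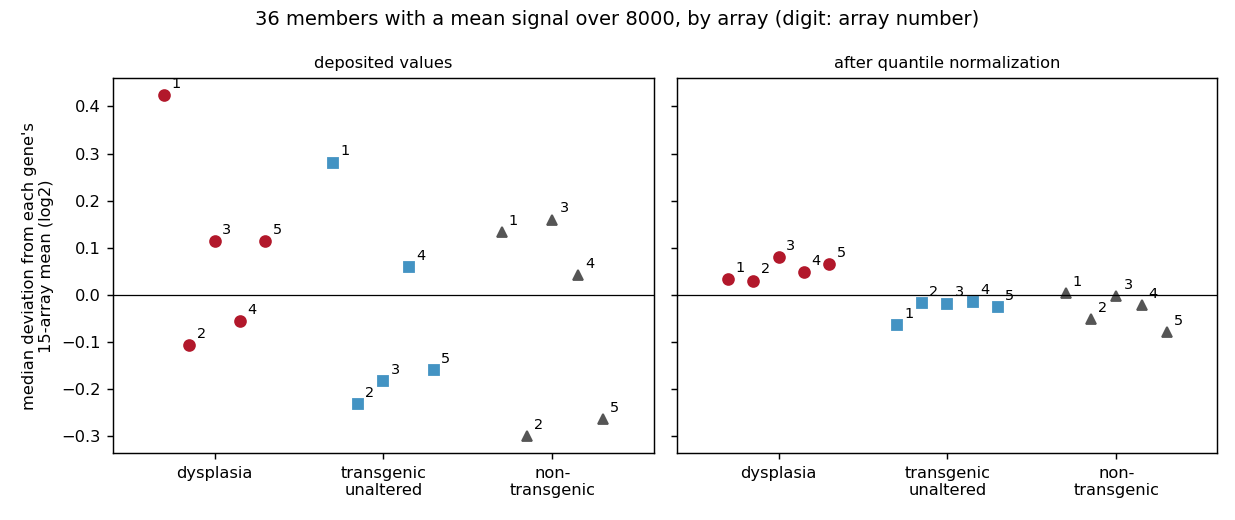
Median deviation (log2) of the 36 members with a mean signal over 8000 from each gene's mean over 15 arrays, by array, as deposited (left) and after quantile normalization (right); digits are array numbers. On the left the groups overlap and arrays 1 and 2 stand at opposite ends within dysplasia and transgenic unaltered lung, and on the right the 5 dysplasia arrays (0.03 to 0.08) lie above the 10 others (-0.08 to 0.00).

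The arrays also carry probes for the 18S ribosomal RNA of the small subunit, which has no poly(A) tail. In every group their signal was highest on the arrays numbered 1 and 2. The 5' probe set gave from 16748 to 23820 on those 6 arrays, from 505 to 8467 on those numbered 3 and 4, and from 573 to 3561 on those numbered 5. No comparison of groups was made on it.

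A paralogue minus its parent on the same array largely cancels a factor that scales all signals of the array alike. It does not cancel a shift that differs between bright and dim probe sets. On dysplasia array 1 the 36 bright members had a median deviation of 0.42, and all tested genes one of -0.05. Of 8 pairs planned, 4 had both genes tested, and 12 exact permutation tests (252 regroupings, two-sided, smallest possible p = 0.00794) were run over them. Rpl22l1 against Rpl22 was higher in dysplasia, by 0.39 over transgenic unaltered and by 0.48 over non-transgenic lung (exact permutation p = 0.00794, adjusted p = 0.0317 for each, all 5 dysplasia arrays above all others). Taken as pairs of the same number, the difference from transgenic unaltered lung had the same sign in 5 of 5 pairs, for which an exact permutation test by sign cannot go below p = 0.0625 (adjusted p = 0.15), so the paired form cannot reach the threshold. The difference of the logs ran from -1.07 to -0.79 in dysplasia, from -1.55 to -1.17 in transgenic unaltered and from -1.72 to -1.11 in non-transgenic lung. With another Rpl22 probe set, the brightest that does not end in _s_at or _x_at, the differences were 0.14 (adjusted p = 0.571) and 0.36 (adjusted p = 0.0635), since that probe set itself changed by 0.37 and 0.23.

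Rps4l against Rps4x was lower in dysplasia by 0.63 than in non-transgenic lung (exact permutation p = 0.00794, adjusted p = 0.0317). Against transgenic unaltered lung it was lower by 0.56 (exact permutation p = 0.0317, adjusted p = 0.0762), with transgenic array 1 (-4.58) inside the range of dysplasia (-5.27 to -4.44). Array 1 was the lowest of both groups, and on it Rps4x was at 25026 and 24562. Without transgenic array 1 the difference was -0.68 (adjusted p = 0.0238), and in the paired form it was below 0 in 5 of 5 pairs (exact permutation p = 0.0625, adjusted p = 0.15).

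Rps27l against Rps27 showed no difference past the threshold between dysplasia and transgenic unaltered lung (-0.14, exact permutation p = 0.452), where both genes rose. It was higher in transgenic unaltered than in non-transgenic lung by 0.68 (exact permutation p = 0.0159, adjusted p = 0.0476), and this call ended when any 1 of the 5 transgenic arrays was left out (adjusted p from 0.119 to 0.152) and was not made in the paired form, where the smallest p possible was reached (exact permutation p = 0.0625, adjusted p = 0.15). Rpl7l1 against Rpl7 gave between -0.08 and -0.02 in the 3 comparisons, with exact permutation p from 0.595 to 0.849.

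**Figure D4:**
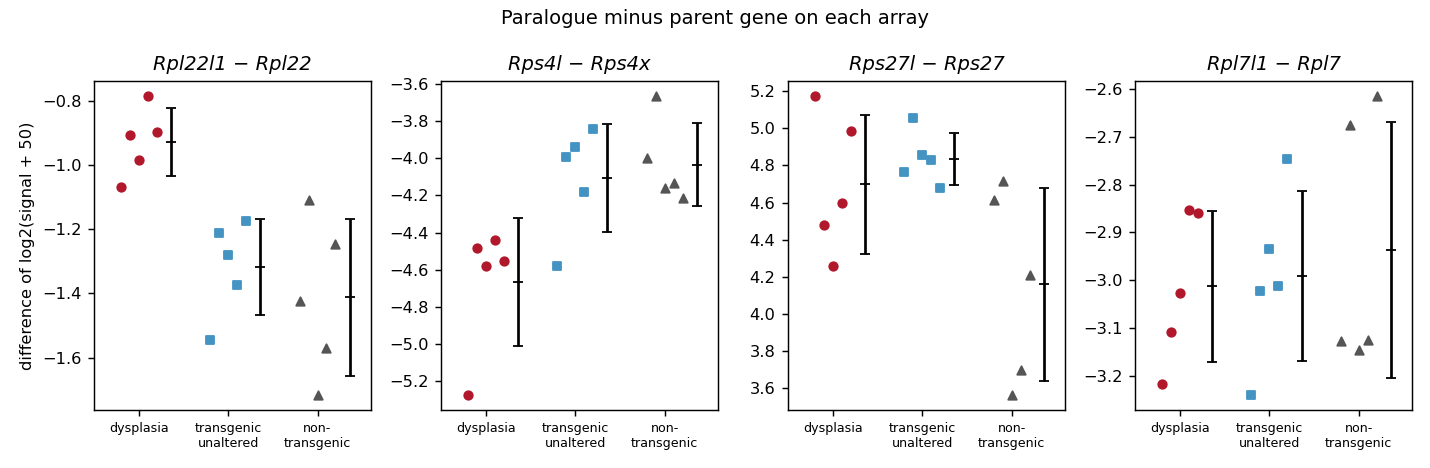
Difference of log2(signal + 50) between paralogue and parent gene on each array, with mean ± SD of 5 arrays; the vertical axes differ between panels and do not start at 0, and only differences between groups can be read, not levels. Rpl22l1 minus Rpl22 lies between -1.07 and -0.79 in dysplasia, above all 10 other arrays.

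Genes with several probe sets gave unequal changes. Of the 47 members, 20 had more than 1 tested probe set, with 44 probe sets beside the brightest. Their change against transgenic unaltered lung had the sign of the brightest in 40 of 44 and was larger than it in 32 of 44. Against non-transgenic lung the numbers were 35 and 26 of 44, and between transgenic unaltered and non-transgenic lung 21 and 25. Of the 44, 9 were called higher and 0 lower against transgenic unaltered lung, in 7 genes. Of all tested genes, 18.6% were higher and 21.0% lower in this comparison.

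The gap was widest in core members. Rpl13a, which also serves outside the ribosome as a translational silencer, was at 21906 on its brightest probe set and changed by 0.04 ± 0.11 (adjusted p = 0.818) against transgenic unaltered lung. Its probe sets at 12290, 8035 and 4432 changed by 0.25 ± 0.13, 0.47 ± 0.09 and 0.66 ± 0.10, with adjusted p = 0.183, 0.00214 and 0.000416. The change was thus larger at each step down in signal. Rpl7, a large subunit protein, changed by 0.12 at 16361, 0.21 at 15203 and 0.54 at 11527 (adjusted p = 0.446, 0.0978 and 0.00415).

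Rps3, a protein at the mRNA entry of the small subunit, changed by 0.15 ± 0.16 at 16253 and by 0.67 ± 0.10 at 774 (adjusted p = 0.52 and 0.000379). Rpl7l1 changed by 0.10 at 2024, 0.39 at 860 and 0.26 at 378 (adjusted p = 0.551, 0.0185 and 0.0692). Rps9 ran the other way, as given above. These genes rose on some probe sets and not on others, and which probe set stands for the transcript was not tested.

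**Figure D5:**
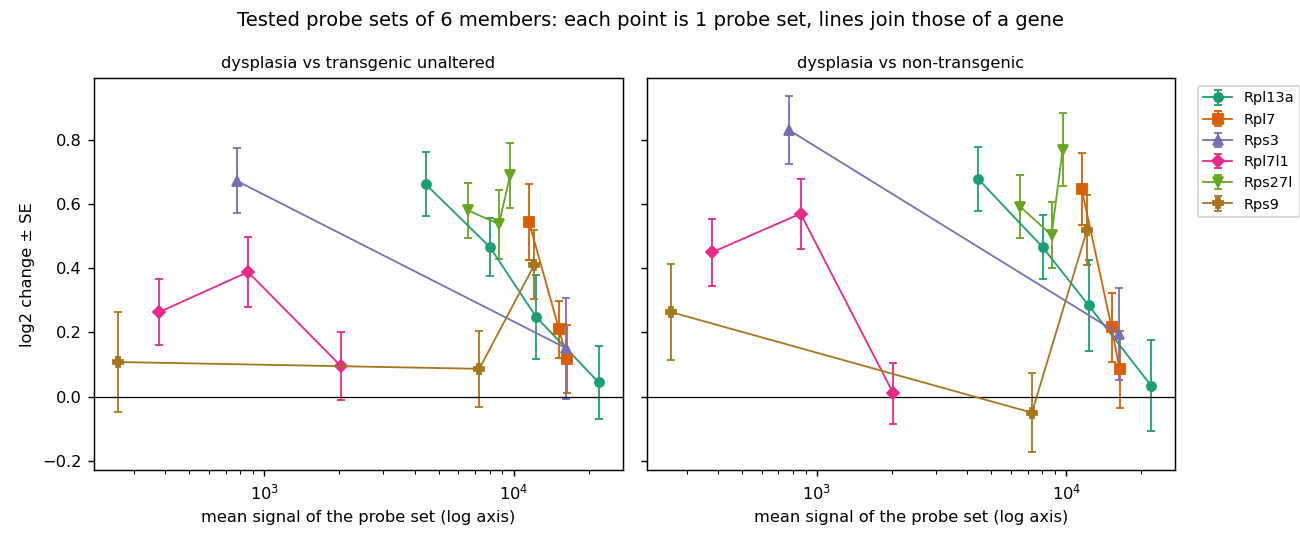
Log2 change (± SE) of every tested single-gene probe set of 6 members against its mean signal (log axis), in both comparisons with dysplasia; lines join probe sets of a gene. For Rpl13a the change against transgenic unaltered lung goes from 0.66 at a signal of 4432 to 0.04 at 21906, while Rps27l stays between 0.54 and 0.69.

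Other rules for the probe set moved the counts. With the mean over all tested probe sets of a gene, 13 members were higher against transgenic unaltered and 11 against non-transgenic lung, and with the most variable probe set 11 in both, with 1 lower each time. Of all tested genes, 20.0% and 25.0% were higher with the mean and 18.0% and 23.3% with the most variable probe set. The shares lower were 22.1% and 26.5% with the mean and 19.7% and 24.6% with the most variable probe set.

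Neighbouring parts of the translation machinery were counted in the same fits, and the shares of all tested genes given above apply to them too. Of 51 tested ribosome biogenesis genes, 11 were higher and 2 lower in dysplasia than in transgenic unaltered lung, and 14 higher and 5 lower than in non-transgenic lung, with medians of 0.06 and 0.12. Nhp2, a protein of the particles that modify ribosomal RNA, rose from 1773 to 3820 (1.09 ± 0.12, adjusted p = 5.67e-05). Npm1, a nucleolar chaperone, rose from 5985 to 9151 (0.61 ± 0.09, adjusted p = 0.000314), and Polr1c, a subunit of RNA polymerases I and III, from 2027 to 3535 (0.78 ± 0.12, adjusted p = 0.000498). Wdr12, of the complex that matures the large subunit, rose by 0.81 over non-transgenic lung (adjusted p = 0.000188).

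Of 39 tested translation factors, 16 were higher and 1 lower than in transgenic unaltered lung, and 20 and 2 than in non-transgenic lung, with medians of 0.26 and 0.31. Pabpc4, a poly(A)-binding protein, rose by 0.65, and the initiation factor subunits Eif3m and Eif3b by 0.57 and 0.64 (adjusted p = 0.000133, 0.000227 and 0.000286). Against non-transgenic lung, Eef1e1, a scaffold of tRNA synthetases, rose by 0.84 (adjusted p = 9.2e-05) and Eif4g3, a scaffold of the cap complex, changed by -0.79 (adjusted p = 3.95e-05). Both subunits of the nascent polypeptide-associated complex at the ribosome exit rose, Btf3 by 0.48 ± 0.12 and Naca by 0.38 ± 0.11 against transgenic unaltered lung (adjusted p = 0.0084 and 0.0184). Fau, whose product is the small subunit protein S30, stood at 16140 and 14778 (0.13 ± 0.14, adjusted p = 0.527).

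Among 16 tested regulators of the mTOR and S6 kinase pathway and of tract mRNAs, 4 were higher and 3 lower in each comparison with dysplasia. Myc, a transcription factor that drives ribosome production, rose from 248 to 659 (1.24 ± 0.11, adjusted p = 1.44e-05). Pdcd4, an inhibitor of the helicase eIF4A, fell by 0.82 on the log2 scale (SE 0.14) against transgenic unaltered lung (adjusted p = 0.000841). Rps6ka3, an S6 kinase downstream of the Raf and ERK cascade, rose by 0.49 (adjusted p = 0.0176), and Larp4b, an RNA-binding protein, by 0.52 over non-transgenic lung (adjusted p = 0.00172).

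The mitochondrial ribosomal proteins, the set most like the cytosolic one, had 27 of 76 tested genes higher and 1 lower than in transgenic unaltered lung, and 41 higher and 1 lower than in non-transgenic lung. Their medians were 0.23 and 0.31, where those of the cytosolic members were 0.15 and 0.16. Mrpl32 rose from 1811 to 4771 (1.37 ± 0.08, adjusted p = 1.03e-06), Mrpl57 by 0.55 and Mrps22 by 0.49 (adjusted p = 0.000979 and 0.00134), and Mrpl17 by 0.70 over non-transgenic lung (adjusted p = 9.9e-05). These lists and the cytosolic set were not tested against each other. Between transgenic unaltered and non-transgenic lung 0 genes of these 5 lists were called, at an unadjusted p under 0.05 in 5 of 51, 2 of 39, 0 of 4, 2 of 16 and 9 of 76.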

How the data were processed

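The authors made the deposited intensity values with GCOS (version not given in the sources used here), 1 signal per probe set and array, scaled to a target of 500, and these were used on their linear scale without change. The mean after trimming 2% at each end was 500 on all 15 arrays. The array's annotation gave 34945 of 45037 probe sets a single gene symbol. Raw scans were not analysed here.

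For each comparison, limma 3.58.1 (R 4.3.3) was run unpaired on log2(signal + 50) of its 10 arrays, for the 21658 probe sets with a mean signal over 100. P-values were adjusted by the Benjamini-Hochberg method over these, and calls were made at 0.05. Errors of log2 changes are standard errors. SAM, the method of the study, regroups the samples and was not run. Scripts were tested on simulated data. Arrays of the same number correlated in their deviations from the group means, with r between 0.219 and 0.773 for dysplasia and transgenic unaltered lung, which the methods take from the same animals, and between 0.135 and 0.793 for transgenic unaltered and non-transgenic lung. For dysplasia and non-transgenic lung r was as low as -0.00366.

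The members, the lists and the tests were chosen with earlier results of these data known. By the rule for named genes, the text names up to 10 called members of each comparison, the paralogue pairs, Rplp0, Rplp1, Rplp2, Rps6, Rpl5, Rpl11, Rpl13a, Rps3, Rps19, Rpsa, Rps27a, Rpl10 and Rpl4 where measured, and the 3 genes of each related list with the smallest p. Rpl37, Rps18, Rpl27a, Rpl38, Rps29 and Rps25 were named after their values were seen. Arrays give no read depth, and their number limits the precision.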

Additional observations from a re-analysis of the deposited data

Results flagged for a closer look

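In dysplasia, Rps4x stood at 25026 on array 1, far above the 4 other arrays of the group, which lay between 15845 and 17443. Transgenic array 1 was high as well, at 24562. Of 69 groups of 5 values checked, this was the only one with so wide a gap, where chance gives about 1 in 20.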

How the results depend on the processing

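Without the paralogues and Rps19bp1 (chosen after seeing the data), 4 members were higher and 0 lower in dysplasia against either other group. With the array number as a replicate block, 13 were higher and 2 lower against transgenic unaltered lung, and with quantile normalization added (also chosen after seeing the data) 11 and 2, where 27.2% of all tested genes went each way. The most variable probe set gave 11 higher in both comparisons with dysplasia, and the mean over probe sets 13 and 11. With the actin ratio as covariate 2 were lower than in non-transgenic lung, beside 26.9% of all tested genes. Leaving out 1 array gave from 7 to 11 higher against transgenic unaltered lung. The cause of these shifts was not tested. Dysplasia and non-transgenic lung come from different mice, and their same-number correlations ran from -0.00366 (number 4) to 0.727; with a block 10 were higher and 1 lower there, beside 26.7% and 27.7% of all tested genes. The block called 0 members between transgenic unaltered and non-transgenic lung.

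Rpl22l1 against Rpl22 gave 0.14 and 0.36 with the most variable probe set and with probe sets not ending in _s_at or _x_at, both past the threshold before and neither after. Under these settings Rps4l against Rps4x (-0.63 against non-transgenic lung) and Rps27l against Rps27 (0.68 between transgenic unaltered and non-transgenic lung) kept their values, and their adjusted p was 0.0635, as the adjustment runs over all pairs tested. Rps27l against Rps27 was 0.76 without an offset and 0.64 after quantile normalization, both no longer called, and from 0.53 to 0.82 with 1 array left out. Rps4l against Rps4x, dysplasia minus transgenic unaltered, passed the threshold after quantile normalization (-0.45) and ran from -0.68 to -0.41 with 1 array left out. Of 1965 values of single named genes under other settings, 12 lost a call, all of them Rpl10a (8, against non-transgenic lung) or Rps9 (3 and 1), 43 gained one, and 0 reversed.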
